A study of Mus musculus with 27 samples.

Results

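The genes described here are the voltage-gated and potassium channel genes of the mouse: every gene row of 3 deposited count tables whose name starts with Kcn, with Scn and a digit, or with Cacn, leaving out Kcnq1 and Kcnq1ot1. The rule took 133 of 27080 gene rows and used names alone, no measured value. The 133 rows carry 130 symbols, since Kcnb2, Kcnh8 and Scn8a each have 2 gene identifiers. By name they comprised 40 voltage-gated potassium (Kv) pore subunits, 15 inward rectifiers, 12 tandem-pore potassium channels (the Kcnk genes), 8 calcium- or sodium-activated potassium channels, 17 auxiliary potassium channel subunits, 11 voltage-gated sodium (Nav) pores, 4 Nav beta subunits, 10 voltage-gated calcium (Cav) pores and 16 auxiliary Cav subunits.

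The RNA was sequenced from J1 mouse embryonic stem cells (ESCs), a line that grows without feeder cells on gelatin in the presence of LIF, and from embryoid bodies (EBs), the aggregates that such cells form and differentiate in once LIF is withdrawn. Gas41, whose gene symbol is Yeats4, is a chromatin reader studied for its link to the histone variant H2A.Z. Cells carrying a control hairpin (shNT, titled shCon, 3 libraries) were compared with cells carrying lentiviral hairpins shGas41-1 (3 libraries) or shGas41-2 (2 libraries), selected in puromycin and collected 8 days after infection. Control cells of day 0 (EB_D0, 2 libraries) were compared with EBs at day 6 (EB_D6, 2 libraries), both carrying the control vector and with Gas41 left intact. The 2 day 0 columns are headed ESC in their table and were taken as EB day 0 because only the day 0 and day 6 samples name that table. All 12 libraries came from 1 cell line and carried a viral vector, the knockdown groups are selected pools of cells, and the labels do not say whether replicates were separate cultures, so p-values measure the spread between these libraries only.

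Libraries held 59224537 to 81524773 gene counts. Levels are given as CPM, the counts of a gene relative to the total of its library, with TMM scaling over all 12 libraries, and 3 counts in 1 library came to 0.0373 to 0.0490 CPM, which limits what can be seen of a gene with no count. Yeats4 stood at 51.3 to 61.1 CPM in shNT, 3.46 to 5.07 CPM with shGas41-1 and 7.97 to 8.81 CPM with shGas41-2, which left 7.93% and 15.3% of the control level. It was 41.5 and 44.2 CPM in EB_D0 and 47.0 and 52.3 CPM in EB_D6. The third shGas41-1 library stood apart from the other libraries of its group, with chi-square values per degree of freedom of 144 and 236 against them over all genes, where the other pairs of libraries within a group gave 29.2 to 81.3. Counts of calls over all channel genes that rest on it are given without it too. The summed level of 10 pluripotency markers was 5714 to 7416 CPM in every ESC library, shNT, knockdown and day 0 alike, and 2299 and 2406 CPM in the 2 EB_D6 libraries. Within the list, Esrrb fell from 828 to 397 CPM and Klf4 from 257 to 116 CPM in group mean with shGas41-1 and Dppa3 rose from 0.345 to 2.52 CPM, none of the 10 were called with shGas41-2, and 7 of 10 fell in EBs.

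Voltage-gated channels open when the membrane potential changes: Nav channels carry the upstroke of action potentials, Cav channels let in calcium that triggers contraction and secretion, and Kv channels repolarize the cell. Inward rectifiers and tandem-pore channels set the resting potential, while auxiliary subunits govern the trafficking and gating of the pores. In non-neural cells many neuronal channel genes are held down by the repressor REST, which binds a DNA element called RE1. Pluripotent cells are not excitable in the way neurons and heart cells are, and differentiating EBs are known to form beating heart muscle and nerve cells.

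Since this element is a well-known shared feature of neuronal channel genes, the RE1 core was searched for within 5000 bases on either side of each gene's most 5′ start. The core was spelled as CAGCACC, 2 free bases and GGACAG, and both strands were read in the mm9 genome. An exact core was found at 6 of the 133 channel genes (4.51%), against 157 of 26910 genes with an annotated start (0.583%). With up to 1 difference it was found at 17 channel genes (12.8%) and 1224 genes (4.55%). These are matches of letters, not measured binding. The 6 exact matches are shown because their genes differ in response below, and capitals mark the core.
Cacna1b: gtCAGCACCacGGACAGctgc
Kcnh4: ttCAGCACCctGGACAGccgc
Kcnk12: gtCAGCACCgcGGACAGcgca
Kcnt1: ctCAGCACCgcGGACAGctcc
Scn2a1: ttCAGCACCacGGACAGcacc
Scn3b: ctCAGCACCacGGACAGtagc

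The Cacna1b match lay in an intron at chr2:24617603-24617623 on the plus strand, the Kcnh4 match in an intron at chr11:100620321-100620341 on the minus strand and the Kcnt1 match in an intron at chr2:25719592-25719612 on the minus strand. Counted from the start, the Kcnk12 match lay at -599 bases, at chr17:88197924-88197944 and the Scn2a1 match at -884 bases, at chr2:65458021-65458041, both on the plus strand and outside the gene. The Scn3b match lay in a non-coding exon at chr9:40077325-40077345 on the minus strand.

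Channel transcripts were scarce in ESCs and a few genes made up most of their sum. In shNT, 41 of the 133 genes averaged at least 1 CPM and 5 averaged at least 10 CPM. Kcnk5, a pH-sensitive tandem-pore background channel, stood at 67.0, 68.3 and 74.8 CPM and alone made up 21.3% of the summed channel level. Together with Cacng7, a gamma subunit known for regulating AMPA receptors, and Cacna1a, the pore of P/Q-type calcium channels, it made up 45.7%. Cacng7 stood at 56.0, 46.3 and 50.5 CPM and Cacna1a at 26.9, 31.4 and 29.2 CPM in the 3 shNT libraries. The same 3 held the largest shares of the summed CPM with both Gas41 hairpins and at EB_D0. A longer transcript gives more counts, so these are shares of counts and not of molecules.

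Per kilobase of exon, the scale on which levels of different genes can be ordered, Cacng7 (23.0 ± 2.2 CPM per kb, SD, n = 3) and Kcnk5 (20.8 ± 1.2) led in shNT and differed from each other by about their spread, and Kcnh6, an ERG-type Kv channel, followed at 4.38 ± 0.35 CPM per kb. At EB_D6 the highest means were those of Kcnk1, a weakly conducting tandem-pore channel (29.3 ± 4.2 CPM per kb, SD, n = 2), and Cacng7 (19.9 ± 4.5). Kcnh6 (14.3 ± 2.8) and Kcnj3, a subunit of G protein-gated inward rectifiers (13.2 ± 3.0), came next and differed by less than their spread.

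**Figure D1:**
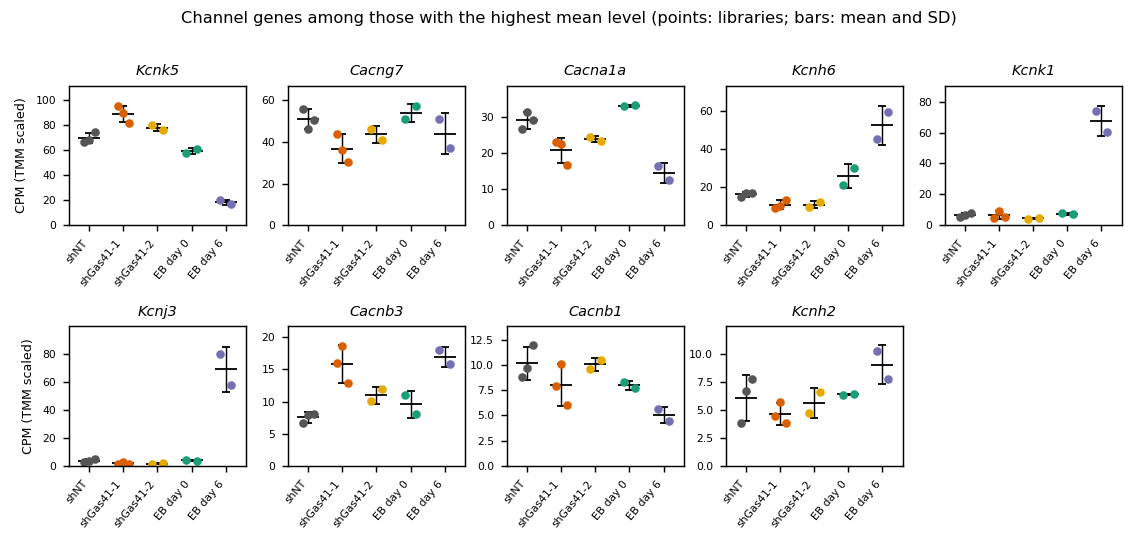
CPM (linear axis from 0, 1 panel per gene) in each of the 12 libraries by group for channel genes among the 10 with the highest mean of group means, with points for libraries and bars for the group mean and SD. Kcnk5 fell from 58.0 and 61.0 CPM at day 0 to 19.9 and 16.7 CPM at day 6, while Kcnj3 and Kcnk1 stood at 57.6 to 80.0 CPM in the 2 EB_D6 libraries and under 10 CPM in the other 10.

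In Gas41 knockdown cells 12 of 88 channel genes were called with shGas41-1 and 3 of 90 with shGas41-2. With shGas41-1, 9 of the 88 channel genes tested were higher than in shNT (10.2%, where 7.9% of all 18274 genes tested were higher) and 3 were lower (3.41%, where 2.4% of all genes were lower), against 10.3% of all genes called in either direction. Of the 9, Kcne1l, Kcnd2 and Kcnt1 averaged under 0.1 CPM in shNT and passed the count filter through shGas41-1, so only a rise could be called. No lower gene and none not called averaged under 0.1 CPM in shNT. The share of such genes over all genes was not counted. With shGas41-2, 1 of 90 was higher (1.11%, against 3.96% of 18405 genes) and 2 were lower (2.22%, against 0.869%), with 4.82% of all genes called in either direction. A call required a fold change of at least 2 and an FDR of 0.05 or less in edgeR's quasi-likelihood test, adjusted over all genes tested. The median log2 difference over the channel genes tested was 0.0039 with shGas41-1 (0.0200 over all genes) and -0.0976 with shGas41-2 (-0.0127 over all genes). Both hairpins were compared with the same 3 shNT libraries, so their values are given side by side and are not independent of each other.

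Cacna1s, the pore of the L-type calcium channel that senses voltage in skeletal muscle, was the one channel gene called with both hairpins. It stood at 0.294, 0.113 and 0.0815 CPM in shNT, 1.90, 1.32 and 1.16 CPM with shGas41-1, and 1.27 and 0.674 CPM with shGas41-2. Every knockdown library lay above every shNT library, which follows in part from picking the gene by its calls, and levels stayed low. The log2 fold change was 3.21 ± 0.45 (SE) with shGas41-1 (9.26-fold, edgeR FDR 0.00335) and 2.61 ± 0.53 with shGas41-2 (6.11-fold, FDR 0.0241). In EBs it was 0.173 and 0.0909 CPM at day 0 and 0.226 and 0.257 CPM at day 6 (log2 0.83 ± 0.53, edgeR FDR 0.224).

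The other 8 genes that rose with shGas41-1 were 5 potassium channel genes, the sodium channel beta subunit Scn4b and the calcium channel beta subunits Cacnb3 and Cacnb4. Kcnf1, a modifier subunit that forms no channel on its own, stood at 0.327, 0.368 and 0.149 CPM in shNT and 1.84, 1.14 and 1.23 CPM with shGas41-1 (log2 2.35 ± 0.37, edgeR FDR 0.00491). With shGas41-2 it stood at 0.772 and 0.726 CPM, above all shNT libraries but below the threshold (log2 1.42 ± 0.40, edgeR FDR 0.0599). Kcnf1 was picked by its shGas41-1 call and both hairpins share the shNT libraries, so this separation adds no independent support. Kcnu1, the pH-sensitive potassium channel of sperm, stood at 0.325 to 0.408 CPM in shNT, 0.725 to 1.09 CPM with shGas41-1 (log2 1.42 ± 0.28, FDR 0.0116 in edgeR) and 0.622 and 0.847 CPM with shGas41-2 (log2 1.05 ± 0.31, FDR 0.0679).

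Cacnb3, a beta subunit that brings Cav pores to the membrane, was the only one of the 9 with a shNT mean above 0.5 CPM. It rose from 6.63, 7.96 and 8.11 CPM in shNT to between 12.9 and 18.7 CPM with shGas41-1 (log2 1.09 ± 0.17, edgeR FDR 0.00463). With shGas41-2 it stood at 10.1 and 11.9 CPM (log2 0.55 ± 0.14, edgeR FDR 0.0538), between both other groups. Kcnt1, Cacnb4, Kcne1l, Kcnd2 and Scn4b stayed under 0.5 CPM in group mean, with log2 differences between 1.63 and 3.57. The 3.57 was that of Kcne1l, which had 0, 4 and 0 counts in the 3 shNT libraries, so its size is poorly known. Kcnt1, a sodium-activated potassium channel, carries an exact RE1 core and had a log2 difference of 1.67 ± 0.40 (edgeR FDR 0.022). The Kcnt1 call was lost without shGas41-1 replicate 1, without each of the 3 shNT replicates and with the replicate number as a block, and the Cacnb4 call in these fits and without shGas41-1 replicate 3. The Cacnb3 call was lost without shGas41-1 replicate 2 and the Kcnu1 call without shNT replicate 2. Kcne1l was lost without shGas41-1 replicate 1 or shNT replicate 3, and Scn4b without shGas41-1 replicate 1 or 2 or shNT replicate 2 or 3. The 16% of Cacnb4 exon bases that overlap an opposite-strand gene cannot be told apart from it in these unstranded libraries.

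The 3 genes that fell with shGas41-1 had shNT means of 1.48 to 5.27 CPM. Kcnip2, a calcium-binding partner of A-type Kv channels, fell from 1.08, 1.48 and 1.87 CPM in shNT to 0.395, 0.598 and 0.408 CPM (log2 -1.63 ± 0.29, edgeR FDR 0.00805), and stood at 0.710 and 0.778 CPM with shGas41-2 (log2 -0.98 ± 0.29, FDR 0.0702). Scn2b, a Nav beta subunit, fell from 4.64, 5.75 and 5.43 CPM to 2.50, 2.47 and 1.91 CPM (log2 -1.17 ± 0.18, edgeR FDR 0.00463), and stood at 3.96 and 3.20 CPM with shGas41-2 (FDR 0.0832). Kcnj4, a strong inward rectifier, fell from 3.36, 2.46 and 3.87 CPM to 1.40, 1.65 and 1.18 CPM (log2 -1.17 ± 0.23, edgeR FDR 0.0119), and stood at 2.44 and 2.36 CPM with shGas41-2 (FDR 0.261). The 3 genes were picked by their shGas41-1 calls, so the shGas41-1 libraries lying lowest follows from the choice. The shGas41-2 libraries also lay below every shNT library, in Kcnj4 by 2.44 against 2.46 CPM. Both hairpins share these shNT libraries, and the share of all genes with this pattern was not counted. The Kcnj4 call was lost without shGas41-1 replicate 1 and with the replicate number as a block.

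Both genes that fell with shGas41-2 were potassium channels. Kcnj3 stood at 2.81, 3.42 and 5.00 CPM in shNT and 1.36 and 2.00 CPM with shGas41-2 (log2 -1.15 ± 0.29, edgeR FDR 0.0474), and at 1.68, 3.04 and 1.37 CPM with shGas41-1, where it overlapped with shNT (log2 -0.85 ± 0.33, FDR 0.103). Kcnt2, a sodium-activated potassium channel, stood at 1.22, 1.00 and 0.801 CPM in shNT and 0.411 and 0.480 CPM with shGas41-2 (log2 -1.17 ± 0.30, edgeR FDR 0.0496). Both lay close to the threshold. Of Kcnj3 exon bases, 31.1% overlap a gene on the opposite strand.

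**Figure D2:**
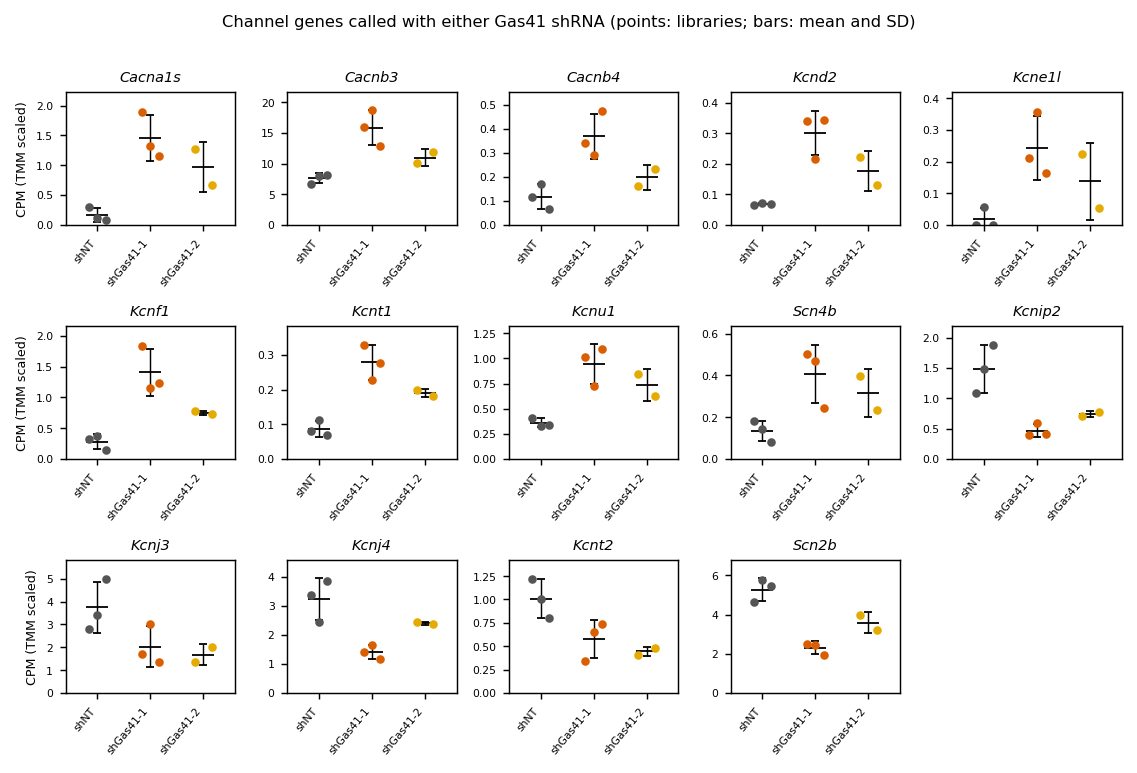
CPM (linear axis from 0, 1 panel per gene) in the shNT, shGas41-1 and shGas41-2 libraries for the channel genes called with either hairpin, with points for libraries and bars for the group mean and SD. Cacna1s lies above all shNT values in all 5 knockdown libraries, and Kcnip2, Kcnj4 and Scn2b lie below.

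The 4 channel genes with the highest CPM in shNT, Kcnk5, Cacng7, Cacna1a and Kcnh6, were called with neither hairpin. Kcnk5 stood at 95.4, 90.2 and 82.2 CPM with shGas41-1 (log2 0.38 ± 0.12, edgeR FDR 0.0556) and 80.2 and 76.2 CPM with shGas41-2 (log2 0.17 ± 0.09, FDR 0.29), all above the highest shNT library. Kcnh6 stood at 14.6 to 16.9 CPM in shNT, 9.04 to 13.2 CPM with shGas41-1 and 9.36 and 12.0 CPM with shGas41-2, where the FDR was 0.0471 at a log2 difference of -0.58 ± 0.15 in edgeR. Cacng7 stood at 30.2 to 44.0 CPM with shGas41-1 (log2 -0.44 ± 0.16, edgeR FDR 0.0865) and 40.9 and 46.5 CPM with shGas41-2. Cacna1a stood at 16.8 to 23.2 CPM (log2 -0.46 ± 0.15, edgeR FDR 0.0697) and 23.4 and 24.5 CPM, below every shNT library with both hairpins. Of the 10 genes with the highest mean over the groups, Cacnb3 with shGas41-1 and Kcnj3 with shGas41-2 were the 2 called. Cacnb1, Kcnk1 and Kcnh2, also among the 10, had log2 differences of -0.37 to -0.07 with shGas41-1 and -0.65 to -0.01 with shGas41-2.

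By subfamily, the calls with shGas41-1 were 2 of 23 Kv pores, 2 of 7 calcium- or sodium-activated channels, 1 of 7 Cav pores and 2 of 12 auxiliary Cav subunits, all higher, and 1 of 10 inward rectifiers, lower. Of the 9 auxiliary potassium channel subunits 1 was higher and 1 lower, and of the 4 Nav beta subunits likewise 1 and 1. None of the 8 tandem-pore channels and none of the 8 Nav pores tested were called. The 45 channel genes not tested with shGas41-1 and 43 with shGas41-2 were below the count filter.

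The counts rest on few libraries. Without shGas41-1 replicate 1, 5 genes rose with shGas41-1, without shGas41-1 replicate 2 6 genes fell, and without shNT replicate 1 5 genes fell, while without the third shGas41-1 library 9 rose and 3 fell, of which 8 and 3 were the genes above. For shGas41-2 no gene rose or fell without shGas41-2 replicate 1, shGas41-2 replicate 2 or shNT replicate 2, 4 rose without shNT replicate 1, and 1 fell without shNT replicate 3, so that the Cacna1s call with this hairpin depends on each of 3 libraries (edgeR FDR 0.0572 to 0.189 without them).

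Compared directly with each other in a fit of all 8 ESC libraries, the hairpins differed in none of 102 channel genes and in 0% of all 19146 genes in edgeR. At an unadjusted p under 0.05, 10 channel genes and 1348 genes differed, and DESeq2 called 0 channel genes, with 37 genes higher and 30 lower over the whole table. The interval of the difference was wide for Cacna1s, at 0.61 with a 95% interval of -0.35 to 1.56 on the log2 scale, shGas41-1 minus shGas41-2. It left out 0 before adjustment for Kcnf1 (0.93, 0.13 to 1.72), Cacnb3 (0.55, 0.14 to 0.96), Kcnj4 (-0.74, -1.27 to -0.22) and Scn2b (-0.62, -1.05 to -0.19).

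EB formation changed many more channel genes. Of 101 tested, 38 were higher at day 6 (37.6%, where 16.6% of all 18287 genes tested were higher) and 15 were lower (14.9%, where 14.7% of all genes were lower), with 31.3% of all genes called in either direction. The median log2 difference was 0.48 over the channel genes and -0.0028 over all genes. Of the 38 that rose, 27 averaged under 0.5 CPM at day 0 and 14 under 0.1 CPM. These 14 passed the count filter through their day 6 counts, so only a rise could be called in them. None of the 15 lower genes and none of the 48 not called averaged under 0.1 CPM at day 0. The 37.6% and the median of 0.48 include these 14 genes. The share of such genes over all genes was not counted. In whole EBs, a larger share of cells of a type and more RNA per cell cannot be told apart. The summed level of 6 streak and mesoderm markers was 9.85 and 10.3 CPM at day 0 and 1267 and 1870 CPM at day 6, and that of 5 endoderm markers 2.09 and 3.18 CPM and 60.0 and 154 CPM, whereas 10 neural markers went from 568 and 601 CPM to 313 and 345 CPM and 11 cardiac and striated muscle markers from 6.58 and 7.48 CPM to 3.85 and 4.19 CPM. The neural sum was carried by Stmn2 and Tubb3, which fell, while Nes rose from 9.74 to 175 CPM and Dcx from 0 to 1.76 CPM in group mean, and of 9 neural markers tested 3 rose and 4 fell. The muscle sum fell largely through Myh6, which went from 3.56 to 0.831 CPM in group mean. Actn2 went from 0.980 to 1.56 CPM, and of 6 muscle markers tested 1 rose and 2 fell. Of the defining markers, Afp was at 0 on both days, Dcx at 0 at day 0 and Neurog2 at 0 at day 6, and Sox1 and Map2 were not analysed here. Their part in the channel results was not tested.

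**Figure D3:**
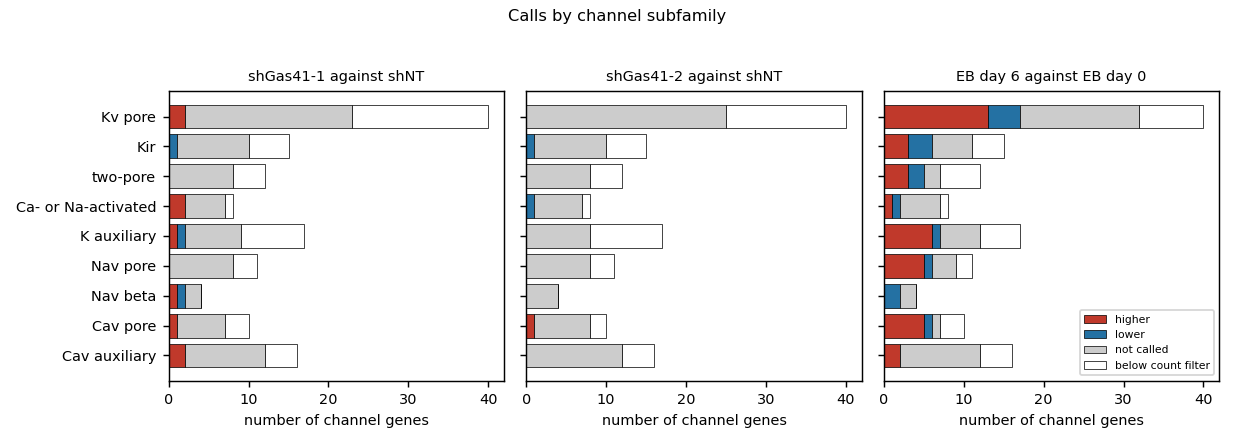
Number of channel genes called higher (red), lower (blue), tested but not called (grey) or below the count filter (white), by subfamily (rows, with Kir for inward rectifiers and the Kcnk genes in the third row), for shGas41-1 against shNT, shGas41-2 against shNT and EB day 6 against day 0 (panels). In EBs, 13 Kv pores were higher and 4 lower, and 6 auxiliary potassium channel subunits were higher and 1 lower.

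Among the potassium channels with the highest CPM at day 6, Kcnj3, Kcnk1 and Kcnh6 had risen and Kcnk5 had fallen. Kcnj3 rose from 4.42 and 3.76 CPM to 80.0 and 57.6 CPM (16.6-fold, log2 4.05 ± 0.19, edgeR FDR 1.91e-05), and Kcnk1 from 7.75 and 6.99 CPM to 74.2 and 60.5 CPM (9.01-fold, log2 3.17 ± 0.14, FDR 1.28e-05). Kcnh6 rose from 21.2 and 30.0 CPM to 45.1 and 59.5 CPM (log2 1.01 ± 0.19, edgeR FDR 0.00437), a call lost with library size scaling. In the opposite direction Kcnk5 fell from 58.0 and 61.0 CPM to 19.9 and 16.7 CPM (3.29-fold lower, log2 -1.72 ± 0.11, edgeR FDR 5.01e-05). The summed level of all 133 genes was 343 and 355 CPM at day 0 and 464 and 508 CPM at day 6. The summed level of Kcnj3, Kcnk1 and Kcnh6, a trio picked after their values were seen, was 33.4 and 40.7 CPM at day 0 and 178 and 199 CPM at day 6, while the other 130 genes summed to 303 and 321 CPM and 287 and 308 CPM.

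Among inward rectifiers, 3 of 11 tested rose and 3 fell. Kcnj5, which pairs with Kcnj3 in the acetylcholine-gated channel of the heart's atria, had no count in the shNT and EB_D0 libraries and stood at 0.181 and 1.20 CPM at day 6, at least 16.1-fold higher taking 3 counts per library as the floor. Kcnj11, the pore of ATP-sensitive potassium channels, also rose. Its call was lost in DESeq2, with a replicate block, with library size scaling and without the count filter. The glial-type Kcnj10 fell from 10.8 and 6.55 CPM to 1.93 and 1.56 CPM (log2 -2.34 ± 0.29, edgeR FDR 0.000769), and Kcnj12 and Kcnj2 fell with log2 differences of -2.26 and -1.70. The Kcnj2 call was lost in DESeq2, without the count filter and with the replicate number as a block. Tandem-pore channels were likewise split, with Kcnk1, Kcnk2 and Kcnk3 higher and Kcnk5 and the mechanosensitive Kcnk4 lower, of 7 tested. The Kcnk3 call was lost in DESeq2 and with library size scaling.

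Kv pores rose in 13 of 32 tested and fell in 4. Kcnc1, a fast Kv channel of rapidly firing neurons, had 2 counts in the 2 EB_D0 libraries and 1912 in the 2 EB_D6 libraries, where it stood at 6.49 and 22.4 CPM. The ratio was 1018 with a 95% counting interval of 281.5 to 8415, and the 2 day 6 libraries differed by more than 3-fold. Kcng3, a modifier subunit, rose from 0.347 and 0.212 CPM to 5.22 and 4.47 CPM (log2 4.07 ± 0.31, edgeR FDR 9.6e-05). Kcna5, a Kv channel of atrial muscle, rose from 0.0667 and 0.0303 CPM to 1.75 and 2.51 CPM (log2 5.36 ± 0.48, edgeR FDR 0.000178), and Kcnq3, a subunit of the neuronal M current, from 0.120 and 0 CPM to 2.75 and 2.23 CPM (log2 5.24 ± 0.73, FDR 0.00117). Kcnd3, an A-type channel, rose from 0 and 0.0758 CPM to 0.332 and 1.44 CPM (log2 4.54 ± 1.13, edgeR FDR 0.0136). Kcnc1, Kcnd3 and Kcnj5 varied several-fold between the 2 EB_D6 libraries.

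Among the Kv pores that fell, Kcnh3, a Kv channel of the forebrain, went from 9.96 and 7.41 CPM to 0.543 and 0.227 CPM (22.8-fold lower, log2 -4.51 ± 0.39, edgeR FDR 0.00016). The modifier subunit Kcng4 went from 0.667 and 0.712 CPM to 0.0302 and 0.0303 CPM, under the level of 3 counts (log2 -4.45 ± 0.53, edgeR FDR 0.000606). Kcna7 and Kcnh1 fell with log2 differences of -1.84 and -1.42. Members of 1 Kv family thus went both ways, Kcnh3 and Kcnh1 down and Kcnh6 up, and Kcng4 down and Kcng3 up.

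Auxiliary potassium channel subunits rose in 6 of 12 tested. Kcnip3, a calcium-binding partner of A-type channels, rose from 2.24 and 2.03 CPM to 10.1 and 11.0 CPM (log2 2.29 ± 0.17, edgeR FDR 8.56e-05). Kcne1l rose from 0.0800 and 0.136 CPM to 0.800 and 2.51 CPM (log2 3.91 ± 0.69, edgeR FDR 0.00333), and Kcne1, a partner of the slow cardiac repolarizing channel, and the calcium-activated channel subunits Kcnmb1, Kcnmb2 and Kcnmb4 rose as well. Kcnab1 was the 1 that fell. Of the 7 calcium- or sodium-activated channels, Kcnn3 rose and Kcnu1 fell, the latter from 0.240 and 0.394 CPM to 0.0604 and 0.0151 CPM (log2 -3.02 ± 0.72, edgeR FDR 0.0113). The Kcnmb2 and Kcnn3 calls were lost in DESeq2, without the count filter and with the replicate number as a block.

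Nav pores rose in 5 of 9 tested. Scn8a, a main sodium channel of mature neurons, is listed under 2 gene identifiers, of which ENSMUSG00000023033 rose from 2.99 and 1.91 CPM to 5.63 and 5.16 CPM (2.17-fold, SE 0.26 on the log2 scale, edgeR FDR 0.00983) and ENSMUSG00000090536 was not called (log2 -0.03 ± 0.23, edgeR FDR 0.922). Scn1a, Scn4a and Scn7a were higher as well, though the Scn4a call was lost in DESeq2 and with the replicate number as a block. Scn3a, a sodium channel of the embryonic brain, fell from 6.70 and 3.62 CPM to 0.694 and 0.772 CPM (log2 -2.83 ± 0.36, edgeR FDR 0.000762). Of the 4 beta subunits Scn2b fell from 7.40 and 5.91 CPM to 2.67 and 2.18 CPM (log2 -1.48 ± 0.22, edgeR FDR 0.00146) and Scn3b from 2.56 and 3.67 CPM to 0.800 and 1.01 CPM (log2 -1.79 ± 0.29, FDR 0.00227). The summed level of the beta subunits accordingly went from 11.3 and 11.5 CPM to 5.04 and 4.77 CPM, while that of the pores did not separate (16.1 and 11.3 CPM, then 15.0 and 16.2 CPM). Transcripts of Scn1a, Scn2a1, Scn3a and Scn9a share 5.14% to 8.29% of their 50-base stretches with other genes, the most of any channel gene here, so a small part of their counts could be misplaced.

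Cav pores rose in 5 of 7 tested and fell in 1. Cacna1g and Cacna1h, T-type channels that open at low voltage, rose with log2 differences of 3.54 ± 0.37 (edgeR FDR 0.000348) and 2.26 ± 0.22 (FDR 0.000236), Cacna1g from 0.507 and 0.303 CPM to 5.92 and 3.77 CPM. The L-type Cacna1c and Cacna1d rose by 1.63 and 3.29, and the N-type Cacna1b, which carries an exact RE1 core, rose from 1.43 and 1.35 CPM to 9.63 and 7.63 CPM (log2 2.62 ± 0.21, edgeR FDR 0.000111). The Cacna1c call was lost with library size scaling and with the replicate number as a block. Cacna1a fell from 33.1 and 33.5 CPM to 16.6 and 12.5 CPM (log2 -1.22 ± 0.15, edgeR FDR 0.000688), so the summed level of Cav pores did not separate (36.5 and 37.2 CPM, then 38.9 and 32.5 CPM). Of 12 auxiliary Cav subunits, Cacnb2, a beta subunit of the heart, rose from 0.147 and 0.121 CPM to 5.04 and 3.74 CPM (31.8-fold, log2 4.99 ± 0.33, edgeR FDR 5.87e-05), and Cacna2d1 rose by 1.23 on the log2 scale.

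**Figure D4:**
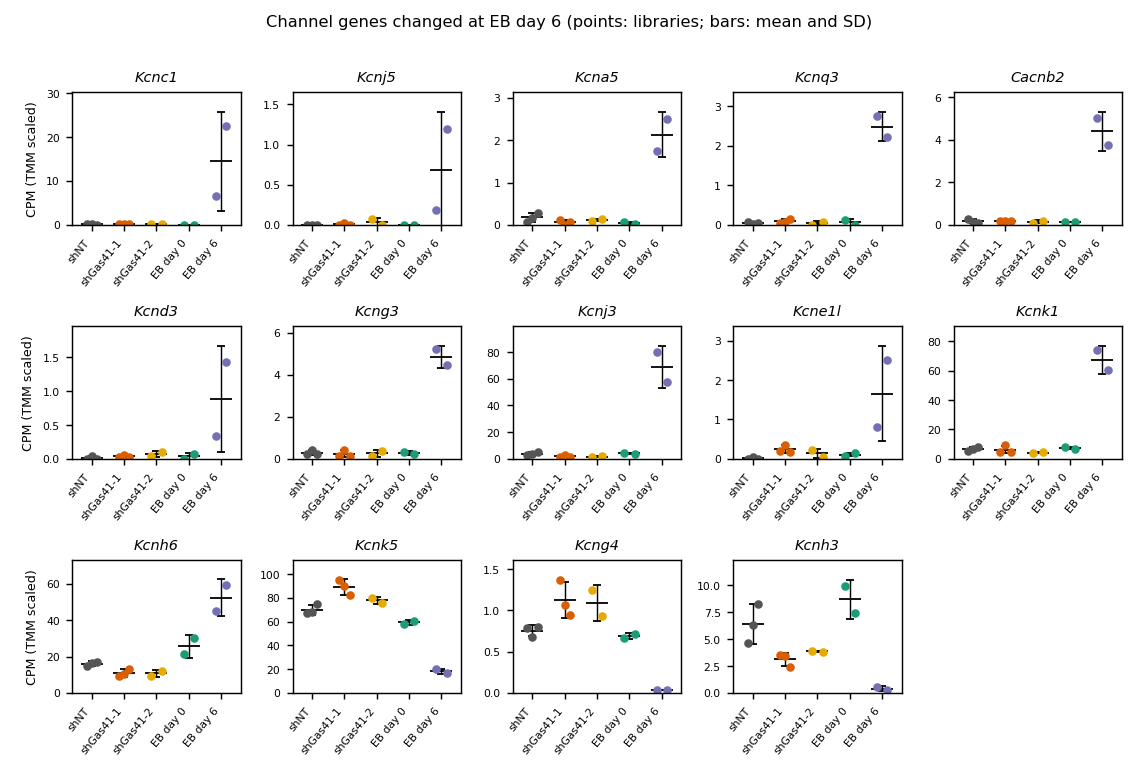
CPM (linear axis from 0, 1 panel per gene) in all 5 groups for channel genes changed at EB day 6, with points for libraries and bars for the group mean and SD. Kcnj3 rises to 80.0 and 57.6 CPM, Kcnc1 is spread between 6.49 and 22.4 CPM at day 6, and Kcnh3 and Kcng4 fall.

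With 2 libraries a day the number of calls depended on each of them: 24 genes rose without EB_D0 replicate 2, and 14 rose and 8 fell without EB_D0 replicate 3.

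Of the 12 channel genes called with shGas41-1, 3 were also called in EBs, and of the 3 called with shGas41-2, 1 was. In EBs 53 of 101 channel genes and 31.3% of all genes tested were called, and the overlap over all genes was not counted. Across 86 channel genes tested in both, the log2 differences with shGas41-1 and in EBs had a Pearson r of 0.193 and a Spearman rho of 0.182, and 43 had the same sign. For shGas41-2 the values over 88 genes were -0.075 and 0.0135, with 47 of the same sign. These are descriptions across genes, which are not independent replicates. Over all genes the Pearson r was 0.055 and -0.081, and 48.7% and 46.5% had the same sign, beside 50% and 53.4% of these channel genes. Of the 9 genes that rose with shGas41-1, Kcne1l also rose in EBs, Kcnu1 fell, 6 were tested and not called and Kcnd2 was not tested. Of the 3 that fell, Scn2b fell in EBs too, to 2.67 and 2.18 CPM, near the 1.91 to 2.50 CPM of shGas41-1. Of the 38 that rose in EBs, 14 were below the count filter with shGas41-1, so their calls there could not be made.

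The difference between the mean knockdown response and the EB response was tested in 1 fit of all 12 libraries. It was called in 43 of 110 channel genes, 18 with a higher response in the knockdown (16.4%, where 17.6% of all 19684 genes were called so) and 25 with a lower one (22.7%, where 15.4% of all genes were), and 32.9% of all genes were called in either direction. The median difference was -0.46 over the channel genes and 0.0213 over all genes. Among the 25 were genes, such as Kcnq3, that passed the count filter only through the EB_D6 libraries. For these a lower response in the knockdown was the only call open. Kcnj3 differed by -5.09 ± 0.45 on the log2 scale (edgeR FDR 3.66e-06), since it was lower with shGas41-2 and 16.6-fold higher in EBs, and Kcnip2 by -2.05 ± 0.42 (FDR 0.00195) and Kcnt2 by -1.81 ± 0.46 (FDR 0.00633). Kcnu1 differed by 4.22 ± 0.65 (edgeR FDR 0.000244), Kcnd2 by 4.86 ± 1.27 (FDR 0.00778) at levels of 0.343 CPM or less, and Cacna1s by 2.05 ± 0.77 (FDR 0.0467). The Cacna1s call was lost in 8 of the 12 fits that left out 1 library, and the Kcnd2 call without EB_D0 replicate 2. Without the third shGas41-1 library 17 and 24 genes were called. Kcnk5, called with neither hairpin and lower in EBs, differed by 1.96 ± 0.16 (edgeR FDR 2.11e-06). For Scn2b the difference was 0.58 ± 0.27 (edgeR FDR 0.0944).

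**Figure D5:**
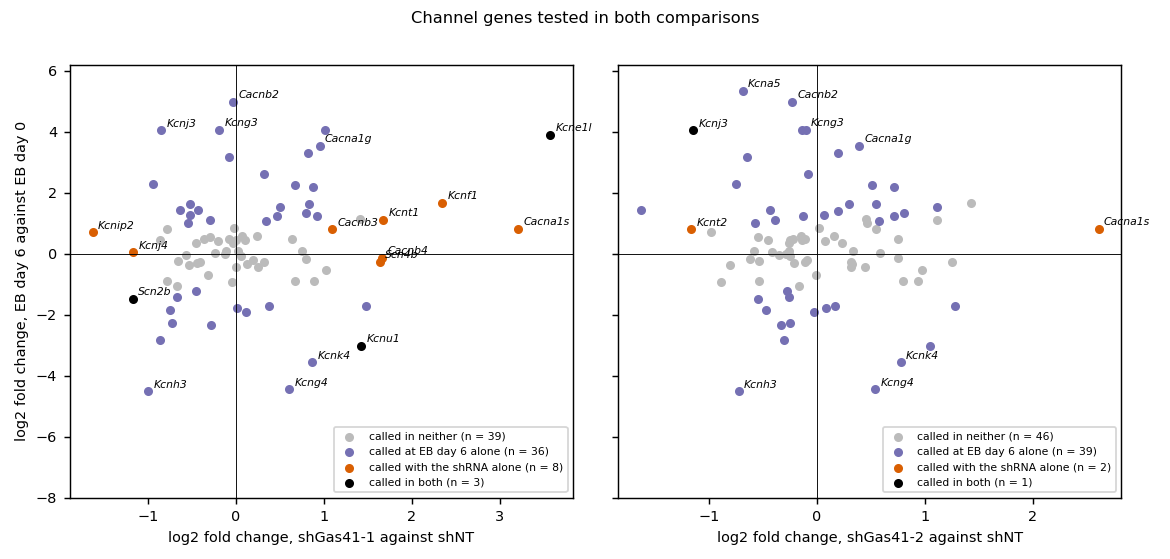
Log2 fold change with shGas41-1 (left, 86 genes) or shGas41-2 (right, 88 genes) against shNT on the horizontal axis and at EB day 6 against day 0 on the vertical axis, 1 point per channel gene tested in both, coloured by where it was called. On the left, values run from -4.51 to 4.99 vertically and from -1.63 to 3.57 horizontally, with Scn2b, Kcnu1 and Kcne1l called in both (black), and on the right Kcnj3 alone is called in both.

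The 6 genes with an exact RE1 core did not move together. Cacna1b rose and Scn3b fell in EBs, Kcnt1 rose with shGas41-1, and Kcnh4, Kcnk12 and Scn2a1 were called in none of the 3 comparisons with a control. Of the channel genes that rose in EBs, 3 of 38 (7.89%) held a core with up to 1 difference, against 184 of 3024 genes that rose (6.08%), and of the channel genes tested and not called in EBs 9 of 48 did (18.8%), against 562 of 12532 genes (4.48%). Rest itself fell in EBs from 362 ± 6.1 to 139 ± 13.5 CPM (SD, n = 2, log2 -1.40 ± 0.09, edgeR FDR 6.18e-05), and none of the 9 genes of the REST repressor complex were called with either hairpin.

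Genes of the same pathways that the naming rule leaves out are given here with their log2 differences, each at an edgeR FDR of 0.05 or less. For comparison, 16.6% of all genes tested rose and 14.7% fell in EBs. The shares over all genes were 7.9% higher and 2.4% lower with shGas41-1, and 3.96% and 0.869% with shGas41-2. Genes of RGK proteins, small GTPases that inhibit Cav channels, rose in EBs in 3 of 4 (Gem by 4.50, Rrad by 3.77 and Rem2 by 2.87), with a median of 3.32 over the list. With shGas41-1 Gem (1.17) and Rem1 (1.31) rose, and with shGas41-2 none of the 4 were called. Of the adaptors of Nav channels, FGF homologous factors and ankyrins, all 6 tested rose in EBs, among them Fgf13 by 3.26, Fgf12 by 2.59 and Ank3 by 2.46, while Fgf14 went from 0 counts to at least 16.1-fold higher, and the median over the list was 2.53. None of these were called with shGas41-1, and Ank3 fell with shGas41-2 (log2 -1.03). Of 5 tested partners of potassium channels, 4 rose in EBs, including Dpp6 by 1.90 and Lrrc55 at least 10.8-fold. The 2 STAC adaptor genes tested in EBs were not called, nor were any with the hairpins.

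Pacemaker and sodium leak channels rose in 4 of 6 tested in EBs, where 16.6% of all genes rose: Unc80 by 4.24, Unc79 by 2.92, the pacemaker Hcn4 by 2.32 and the leak pore Nalcn by 1.37. With shGas41-1 Hcn4 (2.01) and Unc80 (1.69) rose and Hcn2 fell (-1.09), and none of 6 were called with shGas41-2. Of the sodium-potassium pump genes, the sperm-type Atp1a4 rose with both hairpins (1.80 and 1.92), and in EBs Atp1b1 fell (-2.85). Among calcium release channels of internal stores, Ryr3 rose with both hairpins (2.59 and 2.01) and fell in EBs (-1.66), and Itpr2 rose with shGas41-1 (1.98) and in EBs (3.57), where Ryr1 and Ryr2 fell. None of 9 chloride channels of the Clcn family were called with either hairpin, and in EBs Clcn5 (3.35) and Clcn4-2 (2.39) rose and Clcn2 fell (-1.81).

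Markers of differentiated cells gave the following values beside the knockdown calls. The 11 cardiac and striated muscle markers summed to 6.04 to 7.12 CPM in shNT, 7.27 to 10.8 CPM with shGas41-1 and 8.35 and 8.50 CPM with shGas41-2, with none at 0 in all libraries of a group, and Ckm was the 1 of 6 tested that rose with shGas41-1. Endoderm markers summed to 1.71 to 2.07, 2.61 to 5.14 and 2.60 to 2.65 CPM in the same order. The 10 neural markers in the tables summed to 635 to 695, 620 to 725 and 779 to 783 CPM, with the neuronal gene Dcx at 0 in shNT and shGas41-2, and Pax6 rose with shGas41-1 (2.43). The streak and mesoderm markers summed to 11.8 to 15.1, 5.92 to 10.2 and 10.6 to 12.0 CPM, and Eomes and Tbx6 (-1.42) fell with shGas41-1. The part of other cell types in the calls of Cacna1s and the other channel genes was not tested.

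Of the 133 channel genes, 63 were called in at least 1 of the 3 comparisons with a control, 41 were tested and called in none, and 29 were below the count filter in all 3, with a highest group mean of 0.255 CPM. The last group, not detectable as changed at this depth, included the neuronal Kcna2, the kidney channel Kcnj1 and the pain-fibre sodium channels Scn10a and Scn11a.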

How the data were processed

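The authors deposited 3 tables of whole-number counts per gene, made per the labels and the study's methods from TruSeq RNA v2 libraries, which do not keep strand, with TopHat2 2.0.10 on mm9 and HTSeq. The 9 columns of log2 fold changes, p-values and FDRs of the authors' own comparisons were not used. Depth was 59224537 to 81524773 counts per library. Counts were filtered with filterByExpr (minimum count 10, minimum total 15), scaled by TMM and fitted with edgeR 4.0.16 in R 4.3.3, and calls needed a log2 fold change of at least 1 and an FDR of 0.05 or less over all genes tested. SE is the log2 fold change divided by the square root of F. Fits were tested on simulated counts. DESeq2 1.42.0 and other settings served as alternatives.

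Genes were named when called with both hairpins, when among the 12 largest calls of a comparison with a mean of at least 0.5 CPM in 1 group, when among the 10 highest, or when called both in a knockdown and in the difference of responses. Of each pathway list up to 4 called genes per comparison were named. Others, chosen after their values were seen, complete small groups. Members and lists were chosen with earlier results of these data known. The counting interval of the Kcnc1 ratio covers counting error only, while the intervals of log2 differences rest on the edgeR SE and so on the spread between libraries. Exons and starts came from GENCODE vM1 on mm9. ChIP-seq samples were not analysed here, and single results of some genes that the rule names are not reported here.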

Additional observations from a re-analysis of the deposited data

How the results depend on the processing

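Of 611 log2 fold changes of named genes under the alternatives, 551 kept their direction and side of the threshold, 45 lost the threshold, 5 gained it and 10 changed sign. All 10 were differences near 0 that had not been called: with shGas41-2, Cacnb1 went from -0.01 to 0.00044 with median-of-ratios scaling and 0.12 with a replicate block, and Kcnh2 from -0.11 to 0.13 with the block. Leaving out 1 library at a time gave -0.087 to 0.13 for Cacnb1 and -0.37 to 0.12 for Kcnh2 with shGas41-2, and -0.46 to 0.11 for Kcnk1 with shGas41-1.

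Of 144 counts of calls, 117 stayed within 1.5 times of the reported ones. Leaving out 1 library at a time, 5 to 9 genes rose and 2 to 6 fell with shGas41-1, 0 to 4 rose and 0 to 2 fell with shGas41-2, and 14 to 32 rose and 8 to 16 fell in EBs. When a change over 2-fold was itself tested (glmTreat), 1 gene rose and 0 fell with shGas41-1, 0 rose and 0 fell with shGas41-2, 22 rose in EBs and 14 had a lower response in the knockdown than in EBs. The genes lower with shGas41-1 numbered 5 with library size scaling and 10 on FDR alone. With shGas41-2, 2 genes rose without the count filter, and 1 fell with median-of-ratios scaling and 0 in a joint fit of all 8 libraries. The cause of these shifts was not tested.

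The labels do not say that a replicate number marks a shared culture or batch, so the libraries were taken to share only a number, and the block is given as an alternative. The correlation of same-numbered deviations was 0.0050, 0.145 and -0.387 for shGas41-1, 0.336 and 0.239 for shGas41-2, where there were only 2 pairs, and 0.0549 in EBs, where 2 pairs give a single value. With the replicate number as a block, 7 genes rose and 2 fell with shGas41-1, 4 rose and 1 fell with shGas41-2, 32 rose and 14 fell in EBs, and 18 had a higher and 19 a lower response in the knockdown. Depth limits the 29 genes never tested and the size of changes from a day 0 level near 3 counts.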
